A study of Bos taurus with 9 samples.

Results

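The keratins that mark simple and basal epithelia were followed, together with TP63, in RNA-seq libraries of 3D-cultured bovine uterine gland fragments. The genes were taken by symbol from the deposited tables: KRT8, KRT18, KRT19, KRT7 and KRT80 of simple epithelia, KRT5, KRT14 and KRT17 of basal epithelia, and TP63. These are 9 of the 20679 genes listed in the tables, and all 9 were found. The study asked how gland fragments form tubes in culture, and the libraries were made on day 5 from 3 groups of 3 samples each. CYST denotes fragments kept in Matrigel without EGF, which formed cysts. MAT denotes fragments kept in Matrigel with EGF, which formed uterine gland-like (UG-LIKE) structures, and MAT + COL denotes the same with type I collagen added to the Matrigel. All 3 groups shared a DMEM/F12 medium with bovine serum albumin, ascorbic acid, transferrin, sodium selenite and insulin. The sample labels give EGF and collagen without a dose, call the cells epithelial, and do not say which animals the samples came from. Matrigel, a basement membrane extract, is a model of the tissue around the glands and not that tissue itself.

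Keratins are the intermediate filament proteins of epithelial cells. A filament is built from pairs of a type II keratin (here KRT5, KRT7, KRT8 and KRT80) and a type I keratin (here KRT14, KRT17, KRT18 and KRT19). Single-layered glandular epithelia, the uterine gland among them, typically carry KRT8 with KRT18 and KRT19, often with KRT7, whereas KRT5 with KRT14 marks the basal layer of stratified epithelia and myoepithelial cells. TP63 encodes p63, a transcription factor of the p53 family that maintains basal epithelial cells and drives KRT5 and KRT14 there.

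The gene counts of a library summed to between 6568968 and 17948600 reads. Levels are given as the deposited TPM, a length-normalized unit in which genes can be compared with each other. Differences between groups are given as Log2FC from edgeR's quasi-likelihood test on the counts, with its standard error (SE) and the Benjamini-Hochberg adjusted p over all genes tested. Genes were called DEGs where the adjusted p was under 0.05, the Log2FC exceeded 1 in size and each of the 6 libraries compared had more than 1 TPM. The samples carry replicate numbers 1 to 3 in every group, and a second fit included that number as a block (a paired design). The epithelial markers EPCAM, CDH1, CLDN3, CLDN4, CLDN7, ELF3 and MUC1 were all found above 1 TPM, and their summed level was between 1813 and 3429 TPM per library. The gland markers were also present apart from SOX17, which stayed under 1 TPM in all 9 libraries. Stromal markers were present beside them, with a summed level of 1208 to 4878 TPM.

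Levels of the 9 genes ran from 23887 TPM (KRT19 in MAT replicate 1) to no read. In CYST, the mean TPM was 8314 for KRT8, 7751 for KRT19, 3389 for KRT7, 482.6 for KRT18, 109.0 for KRT17, 16.9 for KRT80, 8.45 for KRT5 and 1.66 for KRT14, and TP63 had no read. Neighbours in this order were separate in all 3 libraries for KRT19 over KRT7, KRT7 over KRT18, KRT18 over KRT17 and KRT17 over KRT80. The ranges of KRT8 and KRT19, of KRT80 and KRT5, and of KRT5 and KRT14 overlapped. In MAT and MAT + COL, KRT19 was first and KRT8 second by mean TPM with overlapping ranges, and KRT18 and KRT17 overlapped as well. KRT19 exceeded KRT8 in 1 of the 3 MAT libraries and in 2 of the 3 MAT + COL libraries. KRT7 followed KRT8 and KRT19, and KRT18 followed KRT7, in every group.

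Their genes lie in the keratin clusters of the bovine genome (coordinates of the deposited tables, assembly ARS-UCD2.0). The type II cluster on chromosome 5 holds KRT18, the only type I keratin there, at 26998520 to 27002263 (minus strand), KRT8 at 27038717 to 27047722 (plus), KRT5 at 27366879 to 27373249 (plus), KRT7 at 27674859 to 27689093 (minus) and KRT80 at 27732753 to 27756774 (plus). The type I cluster on chromosome 19 holds KRT19 at 41731623 to 41736234, KRT14 at 41792379 to 41796743 and KRT17 at 41834619 to 41840099, all on the minus strand. TP63 lies at 77389337 to 77688590 of chromosome 1, on the minus strand. Position did not sort the genes by level. KRT5 lies between KRT8 and KRT7 on chromosome 5, and its mean level was far below both in each group.

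**Figure D1:**
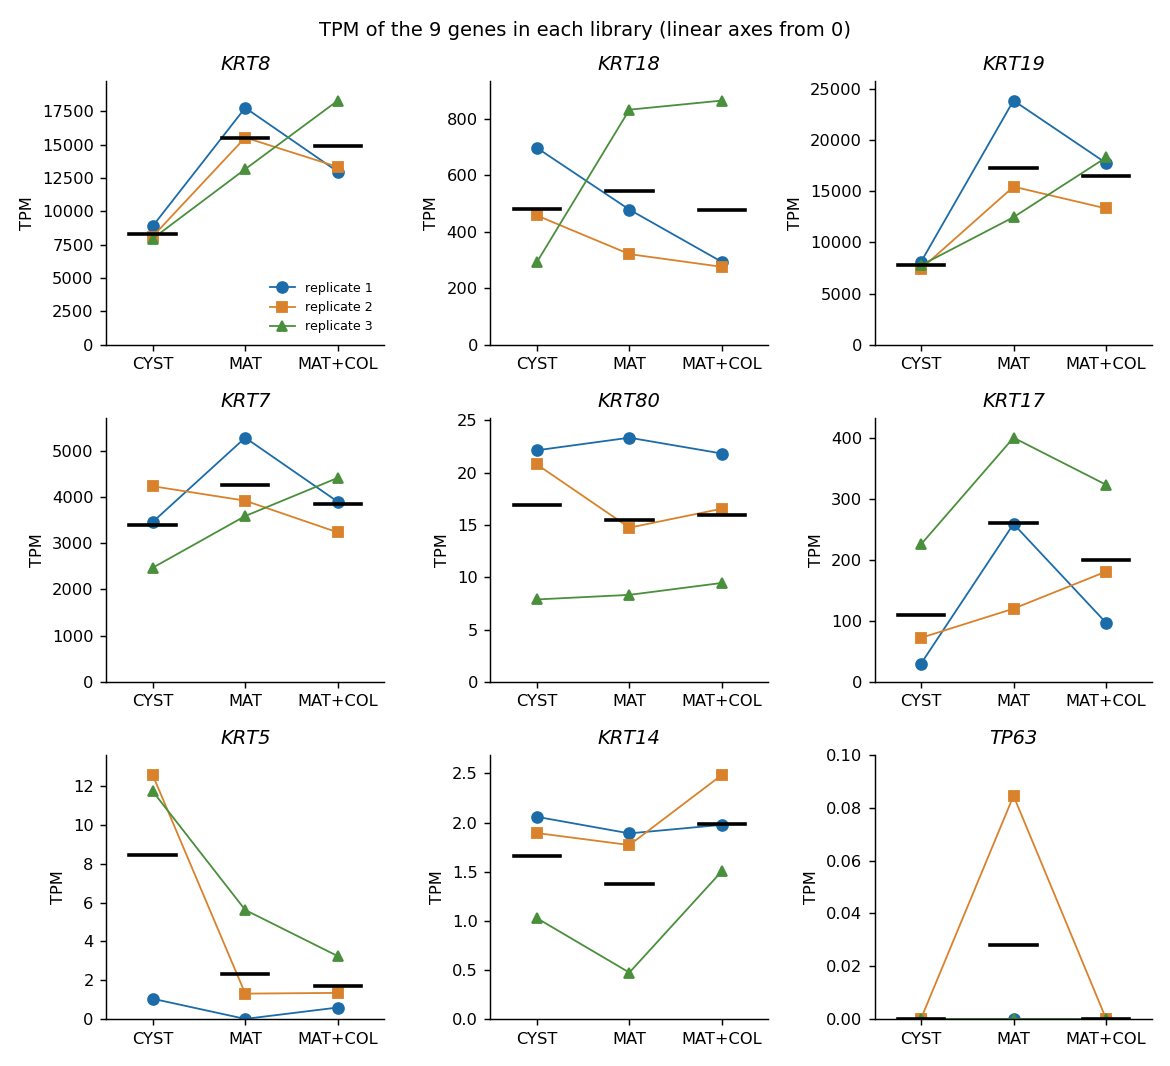
TPM (vertical axes, linear and starting at 0) of each of the 9 genes in CYST, MAT and MAT + COL. Points are libraries, coloured and joined by replicate number, and black bars are group means of 3 libraries; KRT8 and KRT19 lie higher in all 6 libraries with EGF than in CYST, KRT80 keeps the same order of replicate numbers in each group, and TP63 is above 0 in 1 library.

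KRT8 and KRT19, the most abundant keratins of the cultures, were higher in the UG-LIKE structures than in the cysts. KRT8, the main type II keratin of simple epithelia, had 8884, 8108 and 7952 TPM in CYST replicates 1 to 3, and 17769, 15537 and 13166 TPM in MAT replicates 1 to 3. KRT19, the smallest type I keratin, which lacks the tail domain of the others, had 8079, 7413 and 7763 TPM in CYST and 23887, 15458 and 12476 TPM in MAT. All 3 MAT libraries lay above all 3 CYST libraries for both genes. In same-numbered samples, MAT exceeded CYST by 2.00, 1.92 and 1.66 times for KRT8 and by 2.96, 2.09 and 1.61 times for KRT19.

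Whether the edgeR adjusted p of these differences fell under 0.05 depended on the block. Without it, KRT8 had a Log2FC of 0.88 (SE 0.18, 95% interval 0.45 to 1.30) and an edgeR adjusted p of 0.0566, and KRT19 a Log2FC of 1.13 (SE 0.26, 95% interval 0.53 to 1.72) and an adjusted p of 0.0662. Neither reached 0.05. Once the replicate number was blocked, both were significant, KRT8 with a Log2FC of 0.88 (SE 0.19, adjusted p = 0.0315) and KRT19 with 1.09 (SE 0.24, adjusted p = 0.0318). KRT19 then met all criteria of a DEG. The unadjusted edgeR p of KRT8 was 0.00142 without the block and 0.00192 with it, so it did not fall. For KRT19 it was 0.00241 and 0.00195. The adjusted p also depends on the other genes, of which 1.79% passed without the block and 10.6% with it. The blocked adjusted p rose to 0.239 for KRT8 and 0.231 for KRT19 without replicate 1, and to 0.0997 and 0.0610 without replicate 2. The Log2FC stayed between 0.79 and 1.05 for KRT8 and between 0.88 and 1.39 for KRT19 when a replicate number was left out. In such bulk libraries, fewer cells of a type and less RNA per cell cannot be told apart. The summed level of the 7 epithelial markers moved with both genes, from 1813 to 2218 TPM in CYST to 2574 to 3400 TPM in MAT, and its part in the result was not tested. Of the 7, 6 had a positive Log2FC. CLDN4 had a negative one (-0.31), with 672 to 1019 TPM in CYST and 632 to 830 TPM in MAT.

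KRT18, the usual type I partner of KRT8, showed no difference that passed the test. It had 697.9, 458.1 and 291.8 TPM in CYST and 478.8, 321.0 and 833.0 TPM in MAT. The groups overlapped, and MAT was lower than CYST in replicates 1 and 2 but 2.85 times higher in replicate 3. The Log2FC was 0.21 (SE 0.40, 95% interval -0.71 to 1.12, adjusted p = 0.818), and it was -0.28 without MAT replicate 3. KRT8 exceeded KRT18 in every library, by 12.7 to 27.3 times in CYST and by 15.8 to 48.4 times in MAT. An unnamed gene on the opposite strand overlaps KRT18 in the annotation at 27001454 to 27002457, and it was listed at 0 counts in all libraries.

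KRT7, the type II keratin of glandular and ductal epithelia, showed none either. Its level was 3460, 4237 and 2469 TPM in CYST and 5288, 3924 and 3591 TPM in MAT. The highest CYST library lay above 2 of the 3 MAT libraries. The Log2FC was 0.34 (SE 0.21, 95% interval -0.14 to 0.82, adjusted p = 0.404), and the block gave 0.34 as well (SE 0.19, adjusted p = 0.297).

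KRT80, a type II keratin that is linked to desmosomes and cell margins and found in many epithelia, was ordered by replicate number and not by group. Its TPM in replicates 1 to 3 was 22.1, 20.8 and 7.88 in CYST, 23.3, 14.7 and 8.31 in MAT, and 21.8, 16.6 and 9.46 in MAT + COL. Replicate 1 was highest and replicate 3 lowest in each group. The same order of the replicate numbers in all 3 groups, whichever it was, was seen in 13.3% of the 10532 genes with at least 10 counts in every library. The Log2FC between MAT and CYST was -0.11 (SE 0.43, 95% interval -1.10 to 0.88). With the block the interval narrowed to -0.63 to 0.38, around a Log2FC of -0.13 (SE 0.22, adjusted p = 0.746).

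The basal keratins did not move together. KRT17, a type I keratin of basal and stress-exposed epithelia, had 29.5, 72.1 and 225.4 TPM in CYST and 259.1, 120.0 and 400.6 TPM in MAT. It was higher in MAT than in CYST in each of the 3 same-numbered pairs, by 8.79, 1.67 and 1.78 times, although the groups overlapped because CYST replicate 3 lay above MAT replicate 2. The Log2FC was 1.14 (SE 0.77, 95% interval -0.64 to 2.92, adjusted p = 0.451). With the block it was 1.49 (SE 0.46, adjusted p = 0.0790), and without replicates 1, 2 and 3 the blocked Log2FC was 0.79, 1.87 and 1.97, with an adjusted p of 0.160, 0.0384 and 0.0255. Without the block, leaving out 1 library moved the Log2FC from 0.64 (without MAT replicate 3) to 2.46 (without CYST replicate 3).

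KRT5, the type II keratin of basal cells, was low in all libraries. It had 15, 352 and 218 reads in CYST (1.04, 12.6 and 11.7 TPM) and 0, 39 and 126 reads in MAT (0, 1.30 and 5.62 TPM). CYST replicate 1 lay below 2 of the 3 MAT libraries, so the groups overlapped, but MAT was lower in every same-numbered pair. The difference was 9.65-fold in replicate 2 and 2.09-fold in replicate 3. In replicate 1, 3 reads would be worth 0.268 TPM in MAT, and the observed CYST level was 3.89 times this limit. The limit covers the counting error of the 0 reads in MAT only, and not that of the 15 reads in CYST. The Log2FC was -1.86 (SE 1.25, 95% interval -4.74 to 1.03, adjusted p = 0.449) and with the block -2.42 (SE 0.59, adjusted p = 0.0413). KRT5 was then significant but no DEG, because MAT replicate 1 was at 0 TPM. The blocked Log2FC was -2.12, -1.90 and -3.40 without replicates 1, 2 and 3, with an adjusted p of 0.157, 0.150 and 0.0109. Without the block, leaving out 1 library moved the Log2FC from -3.57 (without MAT replicate 3) to -1.25 (without MAT replicate 1).

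Myoepithelial cells, which carry KRT5 in other glands, share their contractile genes with smooth muscle. The summed level of ACTA2, TAGLN, MYH11, CNN1, DES and LMOD1 was 149 to 188 TPM in CYST and 40.5 to 88.9 TPM in MAT, and LMOD1 was under 1 TPM in all libraries. Most of it was TAGLN, at 92.0 ± 22.5 TPM in CYST and 33.4 ± 15.3 in MAT (n = 3 each), and ACTA2, at 54.2 ± 18.3 and 26.2 ± 13.5 TPM, while MYH11 had 7.74 ± 2.66 and 7.98 ± 2.09 TPM (Log2FC 0.066). TAGLN was the 1 of the 5 tested that was significant with the block, with a Log2FC of -1.57 (SE 0.20, edgeR adjusted p = 0.00719), and none of the 5 was without it. Of all genes, 10.6% were significant with the block and 1.79% without it. Their part in the KRT5 result was not tested. KRT14, the type I partner of KRT5 in basal cells, stayed near its detection limit, with 14, 25 and 9 reads in CYST and 10, 25 and 5 in MAT. This was 2.06, 1.89 and 1.03 TPM against 1.89, 1.77 and 0.472 TPM, with overlapping groups and a Log2FC of -0.28 (SE 0.72, 95% interval -1.93 to 1.37, adjusted p = 0.866). Reads of KRT5, KRT14 and KRT17 may be shared with near-identical copies of the keratin family, so that their counts are uncertain.

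TP63 was practically unread. Of 125078130 reads counted on genes in the 9 libraries, 3 were on TP63, all in MAT replicate 2 (0.0846 TPM), and the remaining 8 libraries had none. A count of 0 allows up to 3 reads, which correspond to 0.0846 to 0.226 TPM of TP63 per library. TP63 failed the filter on low counts in all 3 comparisons and was not tested, and a difference between the groups was not detectable at this depth.

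Of the 9 genes, 8 were thus tested in MAT against CYST. Without the block none passed an adjusted p of 0.05, where 1.79% of all 12074 genes tested did, and none was a DEG, where 1.45% were. At an unadjusted p under 0.05, 2 of the 8 (KRT8 and KRT19) passed, beside 20.7% of all genes. DESeq2 gave the same 2 genes at an adjusted p under 0.05, beside 7.85% of all genes. With the block, 3 of the 8 were significant, KRT8 and KRT19 upwards and KRT5 downwards, against 10.6% of all genes, and 1 was a DEG (KRT19), against 6.01%. The groups did not overlap for KRT8 and KRT19, 2 of the 8, where 23.7% of all genes were separate in either direction and 11.9% were higher in MAT. The median Log2FC of the 8 was 0.27, and that of all genes tested 0.012.

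**Figure D2:**
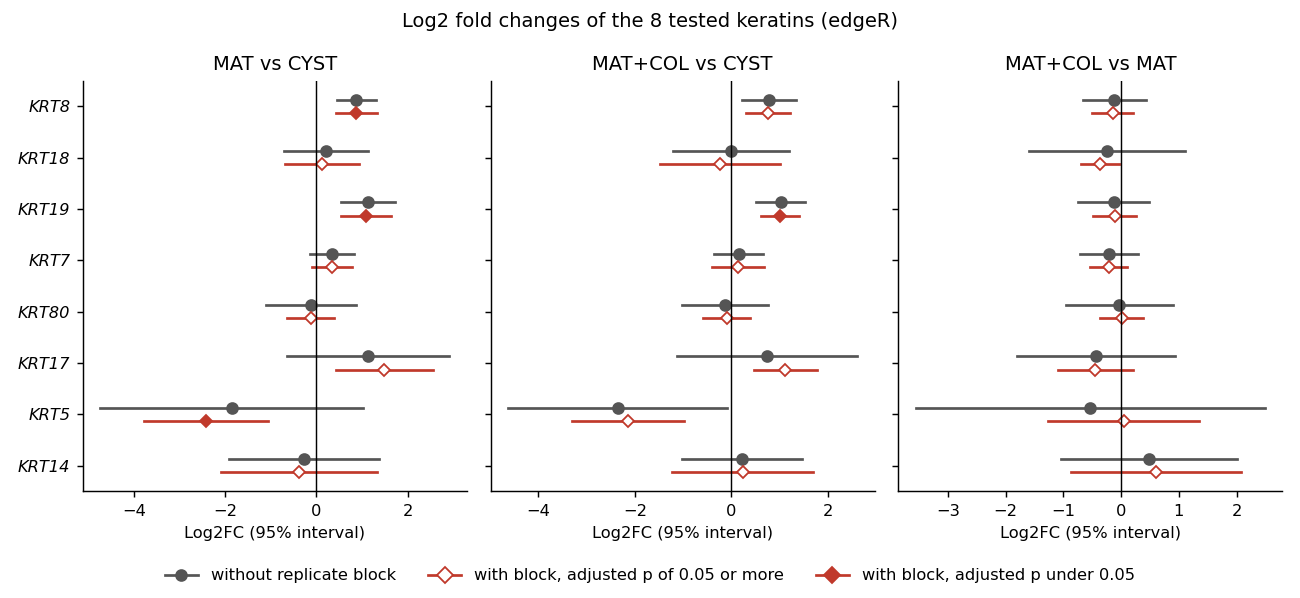
Log2FC (horizontal axes) with 95% intervals for the 8 tested keratins in the 3 comparisons, from edgeR without the replicate block (grey circles) and with it (red diamonds, filled where the adjusted p was under 0.05). The filled symbols are KRT8, KRT19 and KRT5 in MAT against CYST and KRT19 in MAT + COL against CYST; there are none in MAT + COL against MAT.

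Adding collagen I to the EGF cultures was followed by no keratin difference that passed the test. KRT8 had 12972, 13331 and 18311 TPM in MAT + COL and KRT19 had 17769, 13329 and 18319 TPM. Both ranges overlapped those of MAT, with replicates 1 and 2 lower and replicate 3 higher than their MAT counterparts. Against MAT, the Log2FC of KRT8 was -0.11 (SE 0.23, 95% interval -0.66 to 0.43) and that of KRT19 was -0.13 (SE 0.26, 95% interval -0.75 to 0.49), so that a change of either by 1 on the log2 scale lay outside the interval. For KRT5, with 0.588, 1.34 and 3.23 TPM in MAT + COL, the interval from -3.56 to 2.49 around -0.53 left far larger changes possible, and the block turned the Log2FC to 0.044 (SE 0.59). KRT17 had 96.7, 180.9 and 323.4 TPM (Log2FC -0.43, SE 0.58), KRT18 had 293.1, 275.8 and 865.4 TPM (-0.25, SE 0.58) and KRT7 had 3899, 3236 and 4419 TPM (-0.21, SE 0.22). KRT14, with 1.98, 2.49 and 1.51 TPM, had the one positive Log2FC of the 8, at 0.49 (SE 0.65). For KRT80 it was -0.031 (SE 0.40), and 0.0072 (SE 0.17) with the block. With or without the block, none of the 8 passed at an adjusted p of 0.05, and the share of all 12470 genes tested was 0% in both. At an unadjusted p under 0.05 without the block, 0 of the 8 and 0.409% of all genes passed, and DESeq2 likewise gave none at an adjusted p under 0.05. KRT18 had an unadjusted edgeR p of 0.0360 with the block and an adjusted p of 0.955. The groups overlapped for all 8, where 3.57% of all genes did not.

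Against the same 3 CYST libraries, the MAT + COL libraries gave a like picture for KRT8 and KRT19, and the comparisons share these libraries and are not independent. For KRT19 the Log2FC was 1.02 (SE 0.22, adjusted p = 0.0636) and with the block 1.01 (SE 0.16, adjusted p = 0.0322), which made it a DEG. The blocked adjusted p was 0.151 without replicate 1 and 0.140 without replicate 2. KRT8 had 0.78 (SE 0.24, adjusted p = 0.122) and with the block 0.76 (SE 0.19, adjusted p = 0.0679). Both were higher in all 3 MAT + COL libraries than in any CYST library, as were 14.3% of the 12509 genes tested. KRT5 had a Log2FC of -2.35 (SE 0.97, adjusted p = 0.218, with the block -2.14 and 0.0565), and KRT17 had 0.74 (SE 0.80, adjusted p = 0.643, with the block 1.11 and 0.0646). KRT7, KRT14, KRT18 and KRT80 lay between -0.13 and 0.22. None of the 8 tested was significant without the block, against 1.49% of all genes, or a DEG, against 1.13%. With the block KRT19 alone of the 8 was significant, against 5.26% of all genes, and it was a DEG, against 3.46%. Unadjusted, 3 of the 8 (KRT5, KRT8 and KRT19) had a p under 0.05, beside 21.7% of all genes.

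The keratins differed in whether culture group or replicate number went with their spread. Over the 9 libraries, the group held 79.7% of the sum of squares of log2 CPM for KRT8 and 80.0% for KRT19, and the replicate number 5.53% and 6.95%. KRT80 was the opposite, with 0.590% for the group and 95.3% for the replicate number. The replicate number also held more than the group for KRT5 (63.2% against 26.2%), KRT14 (55.1% against 19.9%), KRT17 (51.0% against 31.0%) and KRT18 (37.4% against 5.21%). KRT7 had 36.6% for the group and 2.87% for the replicate number. The medians of all genes were 29.9% and 32.0%. Replicate 1 was lowest for KRT5 in every group, replicate 3 was highest for KRT17 in every group, and replicate 3 was lowest for KRT14 and KRT80 in every group. What the replicate number stands for is not given in the labels.

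**Figure D3:**
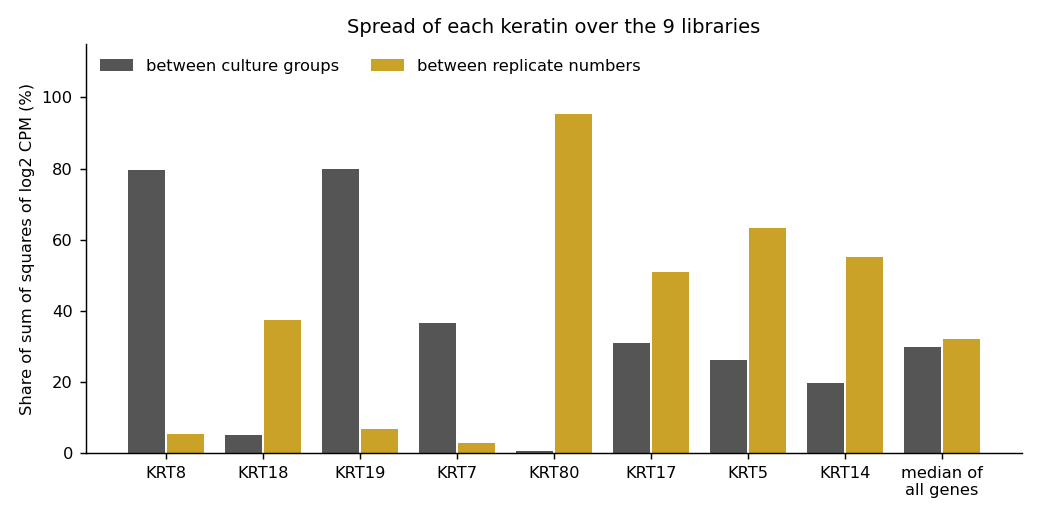
Share (%) of the sum of squares of log2 CPM over 9 libraries that lay between culture groups (grey) and between replicate numbers (yellow), for the 8 tested keratins and as the median of all genes. The group holds 79.7% for KRT8 and 80.0% for KRT19, and the replicate number 95.3% for KRT80.

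As a whole, keratin transcripts were more abundant in the libraries with EGF. The TPM of all keratin genes summed to 20087 ± 1248 (SD, n = 3) in CYST, 37868 ± 8879 in MAT and 35908 ± 5984 in MAT + COL. CYST lay between 18734 and 21192 and did not overlap the other groups, which started at 30491 and 30386. KRT8 and KRT19 together made up 80.1% ± 3.78 of this sum in CYST, 86.3% ± 1.93 in MAT and 87.4% ± 0.595 in MAT + COL. KRT7 made up 16.8% ± 3.85, 11.3% ± 0.400 and 10.7% ± 0.341. KRT5, KRT14 and KRT17 together were 0.617% ± 0.583, 0.743% ± 0.521 and 0.556% ± 0.251, nearly all of it KRT17. The CYST share was 0.290% without CYST replicate 3, and the MAT share 0.447% without MAT replicate 3. No test was run on these sums and shares.

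Ratios between the keratins shifted with these levels. The type II keratins summed to 1.41 ± 0.149 times the type I keratins in CYST, 1.13 ± 0.166 times in MAT and 1.10 ± 0.148 times in MAT + COL. KRT8 and KRT19 stayed close to each other, with KRT8 at 1.02 to 1.10 times KRT19 in CYST and at 0.730 to 1.06 times in the 6 libraries with EGF. Replicate 1 had the lowest of these ratios in MAT and in MAT + COL, at 0.744 and 0.730. KRT17 exceeded KRT5 in every library with a KRT5 read, by 5.73 to 28.3 times in CYST, by 71.3 and 92.0 times in MAT replicates 3 and 2, and by 99.97 to 164.7 times in MAT + COL.

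**Figure D4:**
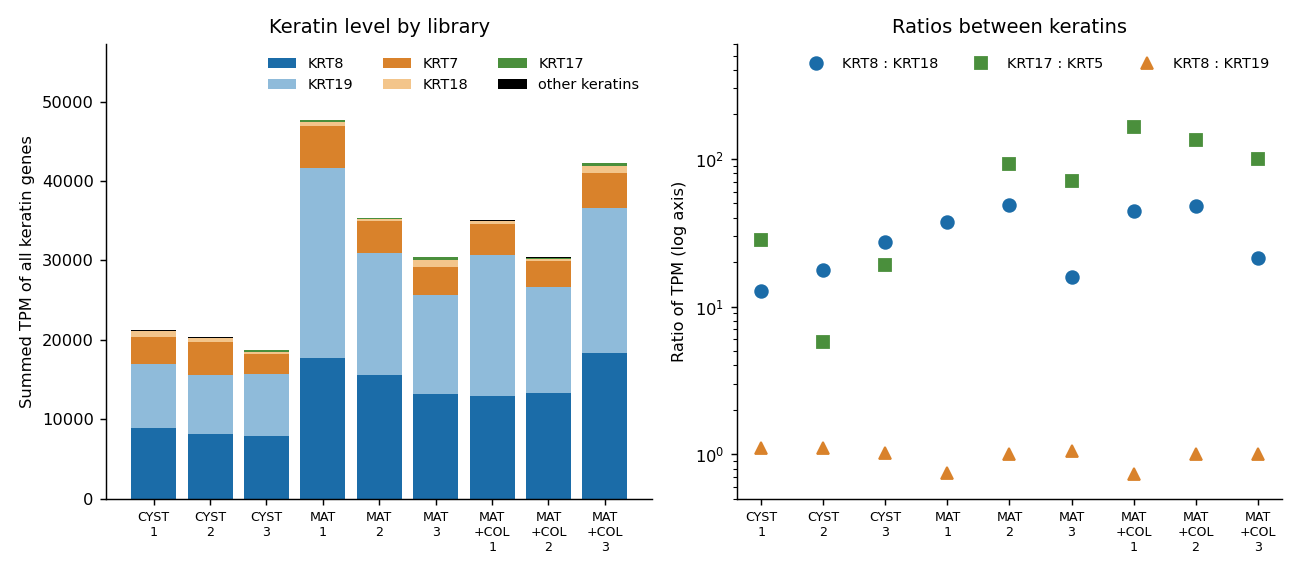
Left, TPM of all keratin genes stacked by library (vertical axis, linear from 0), which is 21192 or less in CYST and 30386 or more in MAT and MAT + COL, mostly KRT8, KRT19 and KRT7. Right, ratios of TPM per library on a log axis, in which KRT17 to KRT5 lies at 28.3 or less in CYST and at 71.3 or more with EGF (no value for MAT replicate 1, where KRT5 was at 0).

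The remaining keratins of the files added little. Of 38 other keratin genes, 26 had no read in any library and 12 had reads. The 8 keratins described here carried 99.9% or more of the summed keratin TPM in every library. Only KRT10, a suprabasal type I keratin, KRT83, a hair keratin, and KRT23, another type I keratin, had a mean above 1 TPM over the 9 libraries. KRT24, a type I keratin, had 6.56 and 0.808 TPM in CYST replicates 1 and 2, none in CYST replicate 3 and in MAT, and at most 0.426 TPM in MAT + COL. KRT10 had 5.29 ± 1.53 TPM in CYST (n = 3), 4.67 ± 1.91 in MAT and 5.71 ± 1.24 in MAT + COL. KRT83 had 2.39 ± 2.24, 3.86 ± 4.17 and 3.15 ± 2.37 TPM, and KRT23 had 1.88 ± 1.38, 3.39 ± 2.79 and 4.08 ± 2.35 TPM. None of these 3 was significant in any comparison, with or without the block, and the groups overlapped in each.

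Beside TP63 itself, genes were followed that p63 controls in basal epithelia or that build the basal cell's attachment to its matrix, and several were higher with EGF. Of a list of 22 such genes, 19 were tested in MAT against CYST. Without the block 4 rose and none fell, where 102 and 114 of all 12074 genes did, and with the block 7 rose and none fell, against 592 and 685 of all genes. The study had already reported CD44, LAMA3 and LAMB3 of this list as higher with EGF in these same libraries. The counts are therefore not independent of that report. DSG3, with at most 12 reads in a CYST library, passed the filter on low counts through the MAT libraries. A higher level in MAT was thus a condition of its being tested. COL17A1, with at most 24 reads in a CYST library, passed the filter through the MAT libraries only in part. Both are among the 4 that rose. DSG3, the desmosomal cadherin of basal layers, rose by a Log2FC of 5.11 (SE 0.59, edgeR adjusted p = 0.0205), from 0.288 ± 0.163 TPM (n = 3) in CYST to 10.1 ± 4.42 in MAT. COL17A1, the collagen of hemidesmosomes, rose from 0.553 ± 0.508 to 17.5 ± 6.32 TPM (Log2FC 5.08, SE 0.66, adjusted p = 0.0227). LAMA3, the alpha chain of the laminin that anchors epithelia, rose from 103.6 ± 25.4 to 439.5 ± 102.0 TPM, and CD44, the hyaluronan receptor, from 66.8 ± 15.0 to 171.3 ± 27.4 TPM. All 4 lay higher in MAT than in CYST without overlap, as did 11.9% of all genes. They were named for their small p in this same comparison. These 4 are adhesion and matrix genes. In the same comparison the Log2FC was -1.86 (SE 1.25) for KRT5 and -0.28 (SE 0.72) for KRT14. For KRT17, the most abundant of the 3 basal keratins, it was 1.14 (SE 0.77). None of the 3 passed without the block, and KRT5 alone passed with it. In MAT + COL against CYST, 3 of 20 tested rose without the block and 5 with it, where 84 and 335 of all 12509 genes did.

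Genes of cornification, the terminal program of stratified epithelia, were in part too low to test. Of 20 listed, 14 were in the files and 7 passed the filter on low counts. CSTA and TGM5, which had 6 reads or fewer in each CYST library, passed it through the MAT libraries, so a higher level in MAT was a condition of their being tested. CSTA, the cystatin A of cornified envelopes, rose from 0.691 ± 0.692 TPM in CYST to 27.2 ± 2.69 in MAT (n = 3 each, Log2FC 5.13, SE 0.79, edgeR adjusted p = 0.0332), and it was the 1 gene of the 7 to pass without the block, where 1.79% of all genes did. With the block 4 of the 7 passed, all upwards, against 10.6% of all genes. SPRR3, a small proline-rich envelope precursor, was at 26.9 to 299.0 TPM in CYST and 1054 to 2669 TPM in MAT (Log2FC 3.69, adjusted p = 0.101, with the block 4.62 and 0.00506). SERPINB5, the epithelial serpin maspin, went from 52.5 ± 17.5 to 101.5 ± 14.8 TPM (Log2FC 0.95, adjusted p = 0.0728, with the block 0.98 and 0.0303). TGM5, an envelope transglutaminase, was at 0.114 ± 0.142 TPM in CYST and 1.77 ± 0.951 in MAT (adjusted p = 0.0890).

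Transcription factors of epithelial and squamous identity passed only with the block. Of 14 tested, 0 passed without it, against 1.79% of all genes, and 3 rose and none fell with it, against 10.6% in either direction. ZNF750, a p63 target in epidermal differentiation, had 22.4 ± 11.1 TPM in CYST and 58.2 ± 2.27 in MAT (n = 3 each, Log2FC 1.30, SE 0.40, edgeR adjusted p = 0.120, with the block 1.47 and 0.0225). ELF3, an epithelial ETS factor, had 79.6 ± 28.7 and 169.8 ± 32.2 TPM and ELF5, a related factor of glandular epithelia, 1.29 ± 0.554 and 4.23 ± 2.31 TPM, and neither passed with or without the block. The same held for TFAP2C, an AP-2 factor, at 2.72 ± 1.43 and 0.510 ± 0.361 TPM.

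Proteins that hold keratin filaments to desmosomes and to each other mostly did not pass the test. Of 17 tested, none passed without the block and 1 rose with it, beside 1.79% and 10.6% of all genes. That gene was EVPL, envoplakin, a linker of keratin filaments to desmosomes, with 3.27 ± 2.57 TPM in CYST and 23.3 ± 8.22 in MAT (n = 3 each, Log2FC 2.74, SE 0.62, edgeR adjusted p = 0.0639, with the block 3.01 and 0.00320). FAM83H, which organises keratin filaments, had 33.2 ± 5.54 and 60.7 ± 18.7 TPM, DSP, desmoplakin, 23.0 ± 5.26 and 38.3 ± 9.31 TPM, and PLEC, plectin, 17.7 ± 2.30 and 32.7 ± 14.1 TPM. These 3 did not pass.

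Intermediate filaments other than keratins went both ways. Of 9 tested, none passed without the block, where 1.79% of all genes did, and with it VIM rose and LMNB1 and LMNB2 fell, 3 of 9 against 10.6% of all genes. VIM, vimentin of mesenchymal and many cultured cells, had 270.9 ± 37.6 TPM in CYST and 580.4 ± 187.8 in MAT (n = 3 each, Log2FC 1.07, SE 0.30, edgeR adjusted p = 0.101, with the block 1.05 and 0.0125). Of the other 8 stromal markers, all had a negative Log2FC in this comparison, as did 5937 of all 12074 genes tested. DCN was at -1.12 with an edgeR adjusted p of 0.0252 with the block. LMNB1, a B-type lamin of the nuclear envelope, had 112.0 ± 59.5 and 42.0 ± 16.7 TPM (Log2FC -1.44, SE 0.48, adjusted p = 0.142, with the block -1.35 and 0.0172). NEFH, a neurofilament, had 0.404 ± 0.245 and 2.40 ± 1.24 TPM and LMNA, the A-type lamin, 465.4 ± 96.0 and 620.7 ± 30.7 TPM, and neither passed. No gene of any of these 5 lists passed in MAT + COL against MAT, with or without the block.

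**Figure D5:**
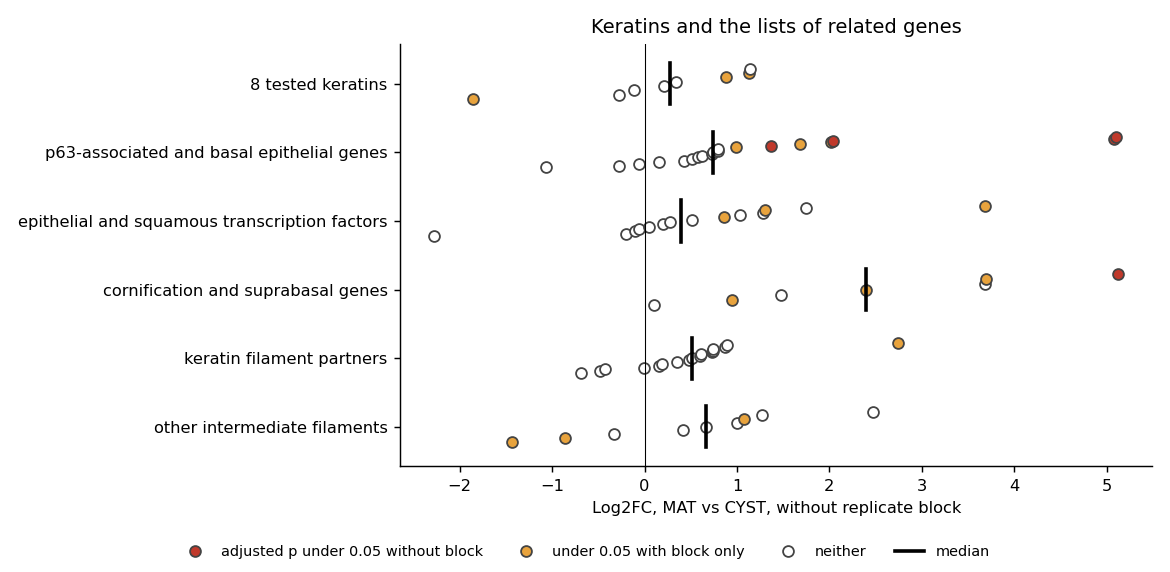
Log2FC in MAT against CYST (horizontal axis, without the replicate block) of the 8 tested keratins and of the tested genes of the 5 lists of related genes, 1 point per gene, with black bars at the medians. Red points passed the adjusted p threshold also without the block, orange points with it only; the 8 keratins have a median of 0.27, and DSG3, COL17A1 and CSTA lie above 5. The medians cover tested genes only. DSG3 and CSTA passed the filter on low counts through the MAT libraries, and COL17A1 did so in part.

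For each tested keratin, the genes outside the set whose log2 CPM was most like it over the 9 libraries were listed by Pearson's r among 12858 genes. These values are a description, since the libraries fall into groups and replicate numbers. Most like KRT8 were KRTCAP3 (r = 0.979), a gene for a keratinocyte-associated protein, and TNFSF15 (0.969), and most like KRT19 were PLSCR3 (0.972) and JMJD8 (0.967). KRTCAP3 itself had 137.6 ± 6.43 TPM in CYST, 216.1 ± 17.1 in MAT and 206.3 ± 13.8 in MAT + COL (n = 3 each). KRT7 was followed by RABEP2 (0.950) and TERF2IP (0.917), KRT18 by PIEZO1 (0.979) and ZNF583 (0.958), and KRT80 by MC1R (0.980) and MFSD6L (0.977). Among the basal keratins, KRT5 was most like DLL1 (0.969) and IL1RAP (0.966), KRT17 most like PFKM (0.970) and MGC137055 (0.959), and KRT14 most like CFAP70 (0.962) and SMIM10 (0.948).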

How the data were processed

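RNA-seq libraries (SMART-Seq HT PLUS kit) of 9 cultures were analysed, grouped by their labels. After trimming, the authors aligned the reads to ARS-UCD2.0 in CLC Genomics Workbench and deposited the counts per gene, not normalized. The authors also deposited TPM of the same genes. The strand setting and the treatment of reads matching several genes are not given in the sources used here. Counts were filtered with filterByExpr (minimum count 10, group factor), TMM-normalized and tested in edgeR 4.0.16 (glmQLFit and glmQLFTest, R 4.3.3) on the 6 libraries of each comparison, after the test was tested on simulated data. The TPM criterion of DEGs was applied to each library. DESeq2 1.42.0 and limma 3.58.1 on log2(TPM + 1) were alternatives, as were RLE scaling, no filter, all 9 libraries in the fit, downsampling and leaving out libraries. Figures were drawn with matplotlib 3.10.9.

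Across genes, libraries with the same number deviated together from the means of their groups, with correlations of 0.329 to 0.437 in MAT against CYST, 0.471 to 0.687 in MAT + COL against MAT and 0.278 to 0.350 in MAT + COL against CYST. All were over 0.1, so the numbers were taken as pairs. Between libraries with differing numbers, the highest correlation was -0.0699, 0.0855 and 0.111 in the same order of comparisons. In MAT + COL against CYST the limit of 0.1 alone thus does not tell pairs from other libraries. The study remarks that individuals divided the dendrogram of MAT and MAT + COL. For pairs with CYST, the pairing rests on these correlations alone. The labels name no separate animals. By the study's remark, the replicates of MAT and MAT + COL stand for individuals, and for CYST this is not stated. The p-values measure the spread between these samples, which in CYST may be technical. Reads carry no molecular identifiers, and floors of 3 counts cover counting error only.

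The keratins, TP63 and all lists were chosen with earlier results of these data known. Named were all 9 genes, in each list the up to 4 genes with the smallest p in MAT against CYST, other keratins with a mean above 1 TPM, and the 2 genes most like each keratin. LMNB2, DCN, TAGLN, ACTA2, MYH11 and KRT24 were named after their values were seen. Promoter and protein sequences were not used here.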

Additional observations from a re-analysis of the deposited data

How the results depend on the processing

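Each of the 24 fold changes of the keratins was recomputed under 14 alternatives that kept all libraries (13 for KRT14 in MAT against CYST), of which the combinations with the replicate block with another choice were chosen after seeing the data. In MAT against CYST, the number of keratins with an adjusted p under 0.05 and of DEGs among them went from 0 and 0 to 2 and 1 with DESeq2, with the likelihood ratio test and with all 9 libraries in the fit. With the replicate block, these numbers were 3 and 1, as they were with DESeq2 or RLE size factors and the block, and 4 and 2 with all 9 libraries or no filter and the block. The share of all genes with an adjusted p under 0.05 differed too. It was 1.79% at first, 7.85% with DESeq2, 7.93% with the likelihood ratio test and 4.51% with all 9 libraries. With the block it was 10.6%, and 12.6% with DESeq2, 10.5% with RLE size factors, 16.5% with all 9 libraries and 10.9% with no filter. DEGs were 1.45% of all genes at first and 2.57% to 6.53% in these settings. In MAT + COL against CYST the numbers of significant keratins and of DEGs among them went from 0 and 0 to 3 and 1 with DESeq2. They were 1 and 1 with the likelihood ratio test, with all 9 libraries, with the replicate block, and with RLE size factors and the block. They were 3 and 1 with all 9 libraries and the block, and 4 and 2 with DESeq2 or no filter and the block. The other alternatives, limma with the block among them, gave 0. Of all genes in this comparison, 1.49% passed at first, 8.99% with DESeq2, 8.03% with the likelihood ratio test and 4.67% with all 9 libraries. With the block it was 5.26%, and 11.8% with DESeq2, 5.53% with RLE size factors, 15.8% with all 9 libraries and 6.98% with no filter. DEGs were 1.13% at first and 2.64% to 6.06% in these settings. The number of significant keratins was 0 to 4 in MAT against CYST, 0 to 1 in MAT + COL against MAT and 0 to 4 in MAT + COL against CYST when replicates were left out, and that of DEGs 0 to 3, 0 and 0 to 2. All the non-zero values came with the block, and the cause was not tested. In these blocked fits, 0.289% to 15.3% of all genes passed in MAT against CYST and 0.878% to 19.1% in MAT + COL against CYST. The 1 in MAT + COL against MAT was KRT8 without replicate 3 (Log2FC -0.43, adjusted p = 0.0473, edgeR), where 0.368% of all genes passed. The replicate block changed no call in MAT + COL against MAT.

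The direction of every keratin's fold change held under these alternatives in MAT against CYST. In MAT + COL against MAT, KRT5 turned from -0.53 to 0.044 with the replicate block (0.045 with RLE size factors, 0.053 with all 9 libraries, 0.048 with no filter and 0.29 with DESeq2, each with the block), to 0.015 with limma on log2(TPM + 1) with or without the block, and to 0.68 with log2(TPM + 0.1). KRT80 turned from -0.031 to 0.0072 with the replicate block (0.0048, 0.0059, 0.012 and 0.0060 in the same order), to 0.077 with limma on log2(TPM + 1) with or without the block, and to 0.085 with log2(TPM + 0.1). In MAT + COL against CYST, KRT18 turned from -0.0065 to 0.0010 with no filter, 0.014 with all 9 libraries and 0.0064 with downsampling. None of these passed the test, and the cause was not tested. With replicates left out, with or without the block, the Log2FC in MAT against CYST ranged from -0.64 to 0.13 for KRT14, from -0.45 to 0.57 for KRT18 and from -0.46 to 0.18 for KRT80. In MAT + COL against MAT it ranged from -1.40 to 1.26 for KRT5, -0.43 to 0.080 for KRT8, -1.01 to 0.088 for KRT17, -1.06 to 0.25 for KRT18, -0.41 to 0.14 for KRT19 and -0.32 to 0.36 for KRT80. In MAT + COL against CYST it ranged from -0.12 to 0.36 for KRT7, -1.002 to 0.36 for KRT18 and -0.42 to 0.11 for KRT80. In that comparison the block called KRT5 without replicate 1, none without replicate 2, and KRT5, KRT17, KRT18 and KRT19 without replicate 3. Summing CPM in place of TPM, which leaves transcript length in, put KRT8 and KRT19 at 86.4% of keratin in MAT + COL and the ratio of type II to type I keratins at 1.74, 1.39 and 1.36 in CYST, MAT and MAT + COL. A pseudocount of 0.1 moved the median of all genes in MAT + COL against CYST to 0.12 on the log2 scale.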
